A study of Mus musculus with 18 samples.

Results

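The C-type lectin receptors followed here were 8 genes, Clec4d, Clec4e, Clec4n, Clec7a, Clec5a, Clec4a2, Clec12a and Clec2d, chosen by gene symbol from a table of 34896 genes. Their mRNA was measured by RNA-seq in granulocyte-monocyte progenitors (GMPs), in neutrophil precursors (preNeu) and in mature neutrophils (matNeu), with 3 libraries per cell type. All cells were sorted from the bone marrow of wild type C57BL/6 mice of 6 to 12 weeks. ChIP-seq recovers DNA bound by a protein or carrying a histone mark, and peaks mark the enriched regions. Peaks of CHD4, the ATPase of the NuRD chromatin remodeling complex, were given for 1 library of wild type (WT) GMPs and 1 library of Gfi1-/- GMPs of the same strain and age. Peaks of H3K4me2, a histone mark of promoters and enhancers, were given for 1 library each of WT GMPs, preNeu and matNeu cells. GMPs were gated as lineage-negative, cKIT+, SCA1-, CD16/32+ and CD34+ cells. The preNeu gate used Mac-1, Gr-1, cKIT and CXCR4, and the matNeu gate used CXCR2 and left out Siglec+ cells. Nothing in the labels ties a library to one animal, so the p-values below measure the spread between libraries, which may be technical. GFI1 is a zinc finger repressor that Gfi1-/- mice lack, and the study asked how it and CHD4 act on genes during neutrophil differentiation.

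C-type lectin receptors are transmembrane proteins of myeloid cells that bind sugars and lipids of fungi, bacteria and damaged cells through a lectin-like domain. The activating receptors signal through the kinase Syk, either by a motif in their own tail, as Dectin-1 (Clec7a) does, or through an adaptor with an ITAM motif. Mincle (Clec4e), MCL (Clec4d) and Dectin-2 (Clec4n) use the Fc receptor gamma chain (Fcer1g), and MDL-1 (Clec5a) uses DAP12 (Tyrobp). Syk passes the signal to a complex of Card9, Bcl10 and Malt1 that activates NF-kB. DCIR1 (Clec4a2) and MICL (Clec12a) carry an inhibitory ITIM motif that recruits phosphatases such as SHP-1 (Ptpn6), and Clr-b (Clec2d) is the ligand of an inhibitory receptor of NK cells.

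All 8 genes lay on mouse chromosome 6 (GRCm38). Clec4a2 (chr6:123106428-123143999), Clec4n (chr6:123229843-123247021), Clec4d (chr6:123262111-123275265) and Clec4e (chr6:123281789-123289870) formed a cluster in which only 6523 bp separated Clec4d from Clec4e and 15089 bp separated Clec4n from Clec4d. Clec2d (chr6:129180615-129186534), Clec12a (chr6:129342691-129365303) and Clec7a (chr6:129461591-129472779) formed another cluster, and Clec5a (chr6:40574894-40585821) stood apart. Clec4e, Clec5a and Clec7a are on the minus strand and the others on the plus strand. GENCODE M21 lists Clec7a as a polymorphic pseudogene and the other 7 as protein coding. TPM values assign reads to transcripts, and near-identical stretches can split them between genes. Of all stretches of 31 bases, 11.8% for Clec2d and 10.9% for Clec4a2 also lay in transcripts of other genes, most often Clec2i and Clec4a4, against 1.96% or less for each of the other 6 genes. The values of Clec2d and Clec4a2 are therefore less certain in this respect.

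The 200 bases before the RefSeq start (GRCm38.p6) are shown 5′ to 3′ for 5 genes, because the summit of a CHD4 peak of WT GMPs lay within 100 bases of each of these starts (that of Clec2d, which also had such a summit, is not shown). Capitals mark GAGGAA or its reverse complement TTCCTC, a core of sites for ETS factors such as PU.1.
Clec4d (chr6:123261907-123262106, plus strand): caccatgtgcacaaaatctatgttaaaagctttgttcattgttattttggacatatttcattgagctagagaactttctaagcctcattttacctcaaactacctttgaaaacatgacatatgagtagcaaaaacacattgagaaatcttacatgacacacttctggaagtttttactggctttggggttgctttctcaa
Clec4e (chr6:123289872-123290071, minus strand): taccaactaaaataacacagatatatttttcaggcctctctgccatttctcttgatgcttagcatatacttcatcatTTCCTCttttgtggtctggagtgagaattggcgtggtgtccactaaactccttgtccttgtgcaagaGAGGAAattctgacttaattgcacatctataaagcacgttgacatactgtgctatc
Clec5a (chr6:40585806-40586005, minus strand): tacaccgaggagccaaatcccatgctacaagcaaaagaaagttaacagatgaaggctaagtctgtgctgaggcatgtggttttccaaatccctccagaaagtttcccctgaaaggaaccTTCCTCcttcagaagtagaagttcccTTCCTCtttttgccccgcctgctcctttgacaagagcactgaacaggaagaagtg
Clec7a (chr6:129472780-129472979, minus strand): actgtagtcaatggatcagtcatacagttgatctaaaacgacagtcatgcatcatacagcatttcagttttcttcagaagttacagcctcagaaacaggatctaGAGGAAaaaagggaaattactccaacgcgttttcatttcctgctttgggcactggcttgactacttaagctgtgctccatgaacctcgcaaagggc
Clec12a (chr6:129350044-129350243, plus strand): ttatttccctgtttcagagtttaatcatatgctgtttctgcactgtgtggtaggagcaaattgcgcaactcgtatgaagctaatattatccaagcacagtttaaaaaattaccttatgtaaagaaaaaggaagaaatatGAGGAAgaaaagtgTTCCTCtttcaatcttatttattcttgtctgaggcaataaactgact
Clec12a held GAGGAA and TTCCTC close together, and their first bases were 61 and 47 bases before the start. Clec5a held 2 copies of TTCCTC, Clec4e 1 of each letter run and Clec7a 1 copy of GAGGAA. RefSeq promoter sequences matched 7 of the 8 genes, all but Clec4n, and 4 of the 7 held the core on either strand, against 21.3% of 27025 RefSeq genes. The Clec4d, Clec4a2 and Clec2d windows did not hold these letters. AAATCA, a core of GFI1 sites that can overlap the first core at its A bases, was found on either strand in 0 of the 7 promoters and in 11.3% of all promoters. These are matches of letters and not binding sites.

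The cells carried the transcripts of their labels. Between 10754 and 12256 genes reached 1 TPM per library. The 6 GMP markers, among them Cd34, Kit and Mpo, had a summed level of 45267 to 47153 TPM in GMPs, of 8320 to 9360 TPM in preNeu and of 9.32 to 32.7 TPM in matNeu. The 6 preNeu markers, among them the granule genes Ngp, Ltf and Camp, summed to 145613 to 171432 TPM in preNeu and to at most 6847 in the other cells. The 6 matNeu markers, among them Cxcr2, Mmp9 and Retnlg, summed to 27308 to 30886 TPM in matNeu and to at most 1190 elsewhere. In 9 of 9 RNA-seq libraries the 2 labels of the cell type differed, and the titles, which these markers follow, were used. Over the 18 samples of the series the labels differed in 13, so some peak lists are among them. The titles were used there too, and these mRNA markers cannot check the cell type of a peak list. The share of TPM in the 10 most abundant genes was 9.15% to 9.78% for GMPs, 24.1% to 28.3% for preNeu and 12.7% to 15.9% for matNeu libraries, so that the remaining genes share a different total in each cell type. The median log2 change of all 13061 genes tested was -0.52 in preNeu against GMP, -0.32 in matNeu against preNeu and -0.92 in matNeu against GMP, and rescaling moved these medians by 0.27 to 0.74 upward.

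Transcripts of other cell types were also present. The 3 B cell markers had a summed level of 0.523 to 1.02 TPM in GMPs, of 8.24 to 12.3 TPM in preNeu and of 26.3 to 52.8 TPM in matNeu. All 3 were called higher in preNeu and in matNeu than in GMPs, beside 14.7% and 22.8% of all genes tested. Ebf1 was listed at 0 in every GMP library. It passed the filter on low values only through its matNeu libraries, so that a higher level there was built into its passing. The 8 monocyte and macrophage markers had a summed level of 2944 to 3617 TPM in GMPs, of 1699 to 2233 TPM in preNeu and of 1135 to 1501 TPM in matNeu, and none was at 0 in a whole cell type. Of these 8, 2 were called higher and 3 lower in matNeu than in GMPs, beside 22.8% and 54.1% of all genes tested. Adgre1, the macrophage marker F4/80, was among the higher with 75.7 to 97.0 TPM in matNeu, and Ccr2, a chemokine receptor of monocytes, among the lower with 0.269 to 0.891 TPM. Csf1r, the M-CSF receptor, had 188 to 232 TPM in GMPs, fewer in preNeu (8.22 to 22.3 TPM) and 253 to 350 TPM in matNeu. The 6 dendritic cell markers summed to 11.2 to 19.6, 42.2 to 62.8 and 32.1 to 60.8 TPM in the same order, mostly from H2-Ab1, and Batf3 was listed at 0 in GMPs and matNeu. The 3 of these 6 that passed the filter were all called higher in matNeu than in GMPs, with means of 15.3 and 36.2 TPM for H2-Ab1, 0.0590 and 8.84 TPM for Siglech, and 0 and 2.72 TPM for Cd209a, the last 2 passing only through their matNeu libraries. The 5 T and NK cell markers reached at most 7.30 TPM in sum, and none passed the filter on low values. The 5 eosinophil, basophil and mast cell markers summed to 1147 to 1405 TPM in GMPs and to 38.0 to 50.0 in matNeu, where Epx was listed at 0. In matNeu against GMP 4 of the 5 were called lower, beside 54.1% of all genes tested, and 1 was not called. Most of the matNeu sum came from Siglecf. It had 30.8 to 58.6 TPM in GMPs, 14.8 to 23.5 TPM in preNeu and 31.2 to 48.7 TPM in matNeu. The part of such cells in the receptor values was not tested, and in bulk samples fewer cells of a type and less RNA per cell cannot be told apart.

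In sum the 8 receptors held between 704 and 890 TPM in GMPs, between 2201 and 2294 TPM in preNeu and between 4521 and 5078 TPM in matNeu. Clec12a made up 65.3% ± 2.80 (SD, n = 3) of it in GMPs, Clec5a and Clec12a made up 34.7% ± 1.63 and 34.5% ± 0.719 in preNeu, and Clec4d made up 42.1% ± 0.818 in matNeu. Clec12a, an inhibitory receptor, thus had the largest share in GMPs, and Clec4d, an activating receptor, the largest in matNeu, while the shares of Clec5a and Clec12a in preNeu differed by less than their SD. The plot of TPM by library shows these levels.

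**Figure D1:**
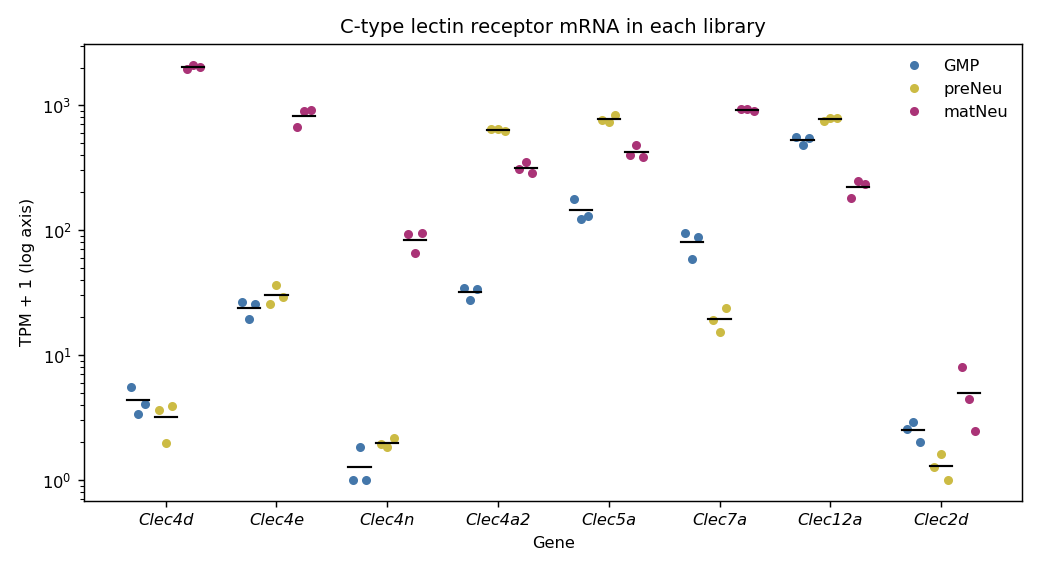
TPM + 1 on a log axis for the 8 receptor genes, with 1 point per library and a black bar at the mean of the 3 libraries of each cell type. Clec4d, Clec4e, Clec4n and Clec7a are highest in matNeu (Clec4d from 1946 to 2104 TPM), and Clec4a2, Clec5a and Clec12a are highest in preNeu.

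Changes were fitted with limma on log2(TPM + 1) over the 13061 genes that reached 1 TPM in 3 or more libraries, and p-values were adjusted over all of these by Benjamini and Hochberg with a threshold of 0.05. All 8 receptors passed this filter, but Clec4n and Clec2d sat near or under 1 TPM in the other cell types. Clec4n passed only through its matNeu libraries, so that a higher level there was built into its passing. It is counted below among the receptors called higher in matNeu. In preNeu against GMP, 3 of 8 were higher and 1 was lower, where 14.7% of all genes tested were called higher and 44.3% lower. From preNeu to matNeu 5 were higher and 3 lower, beside 22.9% and 39.8% of all genes. In matNeu against GMP 6 were higher and 1 lower, beside 22.8% and 54.1% of all genes. The median change of the 8 was 0.45, 3.28 and 3.43 in these comparisons. The comparisons share libraries and do not stand as separate evidence. Folds of expression below are ratios of mean TPM, while log2 changes are of TPM + 1. The added 1 TPM makes the log2 change smaller than the fold for genes near 1 TPM.

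Clec4d, which encodes MCL, the partner of Mincle, had 4.58, 2.39 and 3.08 TPM in GMPs, 2.61, 0.992 and 2.91 TPM in preNeu and 1946, 2104 and 2022 TPM in matNeu. The GMP and preNeu libraries overlapped, and every matNeu library lay far above them. The mean TPM rose 932-fold from preNeu to matNeu, and the log2 change of TPM + 1 was 9.38 ± 0.27 (SE, limma adjusted p = 1.20e-09). Between GMPs and preNeu the log2 change was -0.49 with a 95% interval of -1.08 to 0.11 (adjusted p = 0.145).

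Clec4e, the gene of Mincle, is 6523 bp from Clec4d. It had 25.8, 18.4 and 24.5 TPM in GMPs, 24.8, 35.6 and 28.0 TPM in preNeu and 663, 898 and 907 TPM in matNeu. Its GMP and preNeu libraries overlapped as well, and its matNeu mean was 27.9-fold that of preNeu (log2 change of 4.76 ± 0.19, adjusted p = 8.22e-09). The log2 change of 0.35 from GMP to preNeu missed the threshold (adjusted p = 0.139) but passed it when TPM was rescaled by the median of ratios (0.76, adjusted p = 0.00632) or by the upper quartile (0.82, adjusted p = 0.00423).

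Clec4n, the gene of Dectin-2, was barely detected before the mature stage. It had 0, 0.822 and 0 TPM in GMPs, 0.959, 0.843 and 1.18 TPM in preNeu and 91.6, 64.1 and 93.0 TPM in matNeu. Every matNeu library lay above every other library, with a log2 change of 5.38 ± 0.30 against preNeu (adjusted p = 8.19e-08) and an 83.5-fold ratio of means. Since Clec4n passed the filter only through these libraries, this p-value is not separate evidence of a higher level in matNeu. The log2 change of 0.70 from GMP to preNeu rested on values near 1 TPM and missed the threshold (adjusted p = 0.0669), while it passed without GMP replicate 2 (0.99, adjusted p = 0.0154). It also passed with a pseudocount of 0.1 TPM, which moved it to 2.37 (adjusted p = 0.0272), without the trend in the variance (0.70, adjusted p = 0.0470) and after rescaling (0.76 and 0.78, adjusted p = 0.0348 and 0.0323).

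Clec7a, the gene of the beta-glucan receptor Dectin-1, fell before it rose. It had 93.2, 57.4 and 87.7 TPM in GMPs, 18.0, 14.4 and 22.8 TPM in preNeu and 924, 935 and 902 TPM in matNeu. No library of one cell type overlapped another cell type. The mean was 4.32-fold lower in preNeu than in GMPs (log2 change of -2.04 ± 0.20, adjusted p = 1.36e-05) and then 50.0-fold higher in matNeu than in preNeu (5.59 ± 0.20, adjusted p = 4.36e-09). It was the one receptor called lower in preNeu than in GMPs.

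Clec5a, the gene of the DAP12-coupled receptor MDL-1, peaked in the precursors. It had 178, 121 and 129 TPM in GMPs, 757, 734 and 836 TPM in preNeu and 401, 476 and 383 TPM in matNeu. The 3 cell types did not overlap. The mean was 5.44-fold higher in preNeu than in GMPs (log2 change of 2.45 ± 0.15, adjusted p = 5.97e-07). It was 1.85-fold lower in matNeu than in preNeu (-0.89 ± 0.15, adjusted p = 0.000431), which rescaling shrank to -0.49 (adjusted p = 0.0259) or -0.46 (adjusted p = 0.0323).

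Both inhibitory receptor genes were higher in preNeu than in GMPs and lower in matNeu than in preNeu. Clec4a2 had 33.6, 26.4 and 32.7 TPM in GMPs, 647, 642 and 620 TPM in preNeu and 310, 351 and 284 TPM in matNeu, again without overlap between cell types. It was 20.6-fold higher in preNeu than in GMPs (log2 change of 4.33 ± 0.13, adjusted p = 2.95e-09) and 2.02-fold lower in matNeu than in preNeu (-1.02 ± 0.13, adjusted p = 3.93e-05, or -0.62 and -0.59 after rescaling). Clec12a was already high in progenitors, with 554, 476 and 546 TPM in GMPs, 751, 781 and 783 TPM in preNeu and 179, 247 and 233 TPM in matNeu. Its rise to preNeu was 1.47-fold (log2 change of 0.56 ± 0.13, adjusted p = 0.00381, and 0.99 or 1.04 after rescaling). Its fall to matNeu was 3.51-fold (-1.82 ± 0.13, adjusted p = 5.30e-07). Clec12a was the one receptor called lower in matNeu than in GMPs, by a log2 change of -1.26 ± 0.13 (adjusted p = 5.03e-06). This value lay only 0.34 below the median change of all genes, and rescaling left -0.43 (adjusted p = 0.0152) or -0.35 (adjusted p = 0.0374).

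Clec2d, the gene of the NK receptor ligand Clr-b, was the least abundant of the 8 in preNeu and matNeu. It had 1.56, 1.91 and 1.03 TPM in GMPs, 0.274, 0.605 and 0 TPM in preNeu and 6.99, 3.45 and 1.49 TPM in matNeu. The matNeu libraries lay above the preNeu libraries (log2 change of 1.81 ± 0.40, adjusted p = 0.00243) but overlapped the GMP libraries. Against GMPs the matNeu change of 0.85 had an interval of -0.05 to 1.75 (adjusted p = 0.0769), and without matNeu replicate 3 it was 1.27 (adjusted p = 0.00977). Rescaling moved it to 1.40 (adjusted p = 0.0112) or 1.46 (adjusted p = 0.00932). The preNeu change of -0.96 against GMPs had an adjusted p of 0.0626, and passed the threshold without matNeu replicate 1 (adjusted p = 0.0288) or replicate 3 (adjusted p = 0.0278), in a fit of the 2 cell types alone (adjusted p = 0.0158) and with a pseudocount of 0.1 TPM, which moved it to -2.39 (adjusted p = 0.0300).

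**Figure D2:**
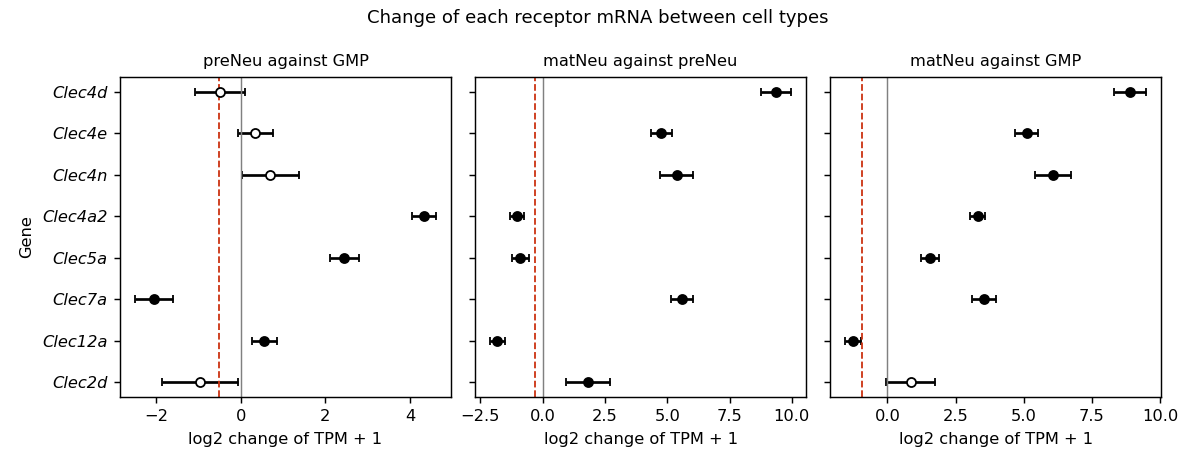
Log2 change of TPM + 1 with its 95% interval from limma for each receptor in 3 comparisons, with filled points for adjusted p under 0.05, a grey line at 0 and a dashed red line at the median of all genes tested. From preNeu to matNeu all 8 points are filled, 5 to the right of 0 and 3 to the left.

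Against the median change of all genes, the matNeu values relative to GMPs were 9.82 for Clec4d, 7.01 for Clec4n, 6.03 for Clec4e, 4.47 for Clec7a, 4.23 for Clec4a2, 2.49 for Clec5a, 1.77 for Clec2d and -0.34 for Clec12a. TPM is per transcript length, so the levels can also be ordered within a cell type. In GMPs the order ran Clec12a, Clec5a, Clec7a, Clec4a2, Clec4e, Clec4d, Clec2d and Clec4n, and no neighbours in it overlapped between libraries. In preNeu the libraries of Clec5a (734 to 836 TPM) and Clec12a (751 to 783 TPM) overlapped at the top, followed without overlap by Clec4a2, Clec4e and Clec7a, and the libraries of Clec4d and Clec4n overlapped below. In matNeu Clec4d was first, Clec7a (902 to 935 TPM) and Clec4e (663 to 907 TPM) overlapped, and Clec5a, Clec4a2, Clec12a, Clec4n and Clec2d followed without overlap.

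Genes with the pattern most like each receptor were ranked by Pearson's r of log2(TPM + 1) over the 9 libraries, which here describes mostly 3 cell type means and carries no test. For Clec4d they were Trim12c (r = 0.9980), Ccl6 and Mpzl3. For Clec4e they were Zc3h12d (r = 0.9986), the integrin gene Itgal and the properdin gene Cfp, and for Clec4n the channel gene Trpm2 (r = 0.9977), Stk40 and Gcnt2. Clec4a2 was closest to Cd177 (r = 0.9973), Itgb2l and Olfm4, and Clec5a to Anxa1 (r = 0.9893), the granule gene Ngp and Id2. Clec7a was closest to Laptm5 (r = 0.9956), Blcap and Psap. For Clec12a the first 3 were Anln (r = 0.9960), Lrmp and G2e3, and for Clec2d Cpne8 (r = 0.9750), P4ha3 and Eva1b. At r of at least 0.99 there were 90 genes for Clec4e, 79 for Clec4d and 59 for Clec4n, and 0 for Clec5a and Clec2d.

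The adaptors of the activating receptors rose at both steps. Fcer1g had 125, 156 and 133 TPM in GMPs, 466, 397 and 366 in preNeu and 1343, 933 and 778 in matNeu, and it rose 2.97-fold (log2 change of 1.56 ± 0.19, adjusted p = 4.96e-05) and then 2.48-fold (1.28 ± 0.19, adjusted p = 0.000136). Tyrobp had 189, 262 and 255 TPM in GMPs, 663, 550 and 538 in preNeu and 4541, 2959 and 2474 in matNeu, and it was 14.1-fold higher in matNeu than in GMPs (3.78 ± 0.21, adjusted p = 3.79e-08). The libraries of the 3 cell types did not overlap for either gene. Syk, the kinase that both adaptors recruit, had 41.0, 46.2 and 58.2 TPM in GMPs, 79.8, 96.9 and 102 in preNeu and 256, 266 and 365 in matNeu, and it was higher at each step (adjusted p = 0.00120 and 1.45e-05).

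The complex downstream of Syk did not move as one. Card9 had 49.2 to 60.5 TPM in GMPs, and its libraries overlapped with those of preNeu (50.6 to 70.9 TPM) and matNeu (54.4 to 61.7 TPM). Its log2 change in matNeu against GMP was 0.05 with an interval of -0.30 to 0.40 (adjusted p = 0.784), while the median of all genes moved by -0.92. Bcl10 had 40.5 to 61.1, 53.9 to 68.1 and 214 to 244 TPM, and rose 3.85-fold from preNeu to matNeu (1.93 ± 0.17, adjusted p = 2.27e-06). Malt1 had 13.9 to 22.0, 22.7 to 30.8 and 23.0 to 33.1 TPM, and its change of 0.49 in matNeu against GMP missed the threshold (adjusted p = 0.0696). Ptpn6, the phosphatase recruited by ITIM motifs, had 378 to 405, 681 to 791 and 1188 to 1408 TPM and was 3.33-fold higher in matNeu than in GMPs (1.73 ± 0.10, adjusted p = 6.30e-08).

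Of the 19 adaptors and signalling partners listed, 17 passed the filter on low values. In preNeu against GMP 8 were higher and 1 lower, beside 14.7% and 44.3% of all genes tested. From preNeu to matNeu 12 were higher and 2 lower, beside 22.9% and 39.8%. In matNeu against GMP 12 were higher and 2 lower, beside 22.8% and 54.1%. The medians were 0.50, 1.28 and 1.73. The Src family kinase genes Lyn and Fgr were among those called higher in all comparisons, and Vav1 and Ptpn11 were the 2 called lower in matNeu against GMP. The change of Vav1, -0.33, lay 0.59 above the median change of all genes, and that of Ptpn11, -1.35, lay 0.43 below it.

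**Figure D3:**
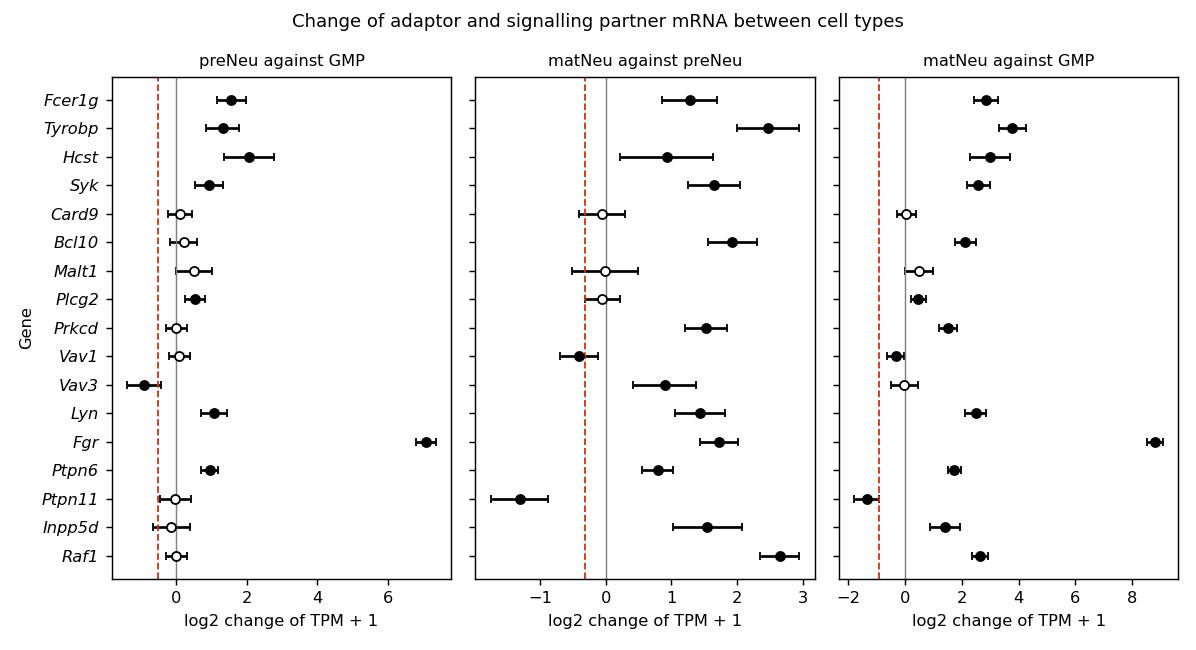
Log2 change of TPM + 1 with its 95% interval from limma for the 17 adaptor and signalling genes that passed the filter, drawn with filled points for adjusted p under 0.05 and a dashed red line at the median of all genes tested. Fcer1g, Tyrobp, Hcst and Syk lie right of 0 in all 3 panels and Card9 lies near 0 in all 3, and the panels have different ranges on the x axis.

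The other C-type lectin domain genes were split between higher and lower. Of 50 listed genes 25 passed the filter. In matNeu against GMP 8 of these were higher and 11 lower, beside 22.8% and 54.1% of all genes tested, with a median of -0.27. The 3 genes with the highest mean over all 9 libraries were Mgl2, a galactose-binding lectin of macrophages, the activation marker Cd69 and the NK receptor family gene Klrb1f. All 3 were lower in matNeu than in GMPs. Mgl2 had 80.4, 61.5 and 62.9 TPM in GMPs, 76.3, 87.2 and 101 in preNeu and 0.108, 0 and 0 in matNeu (log2 change against GMP of -6.05 ± 0.19, adjusted p = 8.09e-10). Cd69 had 112 to 121 TPM in GMPs and 2.69 to 5.67 TPM in matNeu, and Klrb1f had 61.1 to 89.8 TPM and 0 to 0.986 TPM. Among the 8 that were higher in matNeu than in GMPs, named after their values were seen, Cd209c had a mean of 8.20 TPM in GMPs and of 72.0 TPM in matNeu, and Clec4a3 one of 2.20 and 64.1 TPM. Cd209a, Clec4a4 and Clec4g, also among the 8, passed the filter only through their matNeu libraries. In preNeu against GMP 8 of the 25 were higher and 11 lower, beside 14.7% and 44.3% of all genes tested. From preNeu to matNeu 9 were higher and 10 lower, beside 22.9% and 39.8%.

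Of 18 listed transcripts that CARD9 and NF-kB signalling is known to induce, 11 passed the filter. Among these, Il1b, Cxcl2 and Ptgs2 passed only through their matNeu libraries, so that a higher level there was built into their passing. In preNeu against GMP 3 were higher and 3 lower, beside 14.7% and 44.3% of all genes. From preNeu to matNeu 9 were higher and 0 lower, beside 22.9% and 39.8%, and in matNeu against GMP 10 were higher and 1 lower, beside 22.8% and 54.1%. The cytokine gene Il1b, which is also one of the matNeu markers, had at most 2.36 TPM in GMPs and preNeu and 1908, 1342 and 2236 TPM in matNeu (log2 change of 10.36 ± 0.30 against preNeu, adjusted p = 1.24e-09). The NF-kB inhibitor gene Nfkbia had 56.3 to 91.5, 259 to 337 and 820 to 962 TPM and was higher at both steps (adjusted p = 4.62e-06 and 1.75e-05). The prostaglandin synthase gene Ptgs2 had at most 1.96 TPM in the first 2 cell types and 423, 238 and 222 TPM in matNeu.

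CHD4 peaks were found near every receptor gene. Within 10 kb of the 8 genes lay 46 distinct CHD4 peaks of WT GMPs, of which 1 was near both Clec4n and Clec4d, and at least 1 peak lay near each gene, where 32.4% of 22020 genes had such a peak. Clec12a had 13, Clec5a 8, Clec7a 7, Clec4a2 5, Clec4d 4, Clec4n 4, Clec4e 3 and Clec2d 3, beside a mean of 1.29 per gene over all genes. The fold enrichment over background that the deposited list gives for the strongest peak was 64.5 at Clec12a, 58.2 at Clec4a2, 51.6 at Clec7a, 49.9 at Clec5a, 28.9 at Clec4n, 18.3 at Clec2d, 15.6 at Clec4d and 8.45 at Clec4e. With 1 library per genotype these values have no replicate check.

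The strongest peaks of several genes sat on the start. The Clec12a peak (chr6:129349268-129351939) had its summit 29 bases after the RefSeq start and that of Clec7a (chr6:129472420-129473307) 68 bases before it. The Clec4a2 peak (chr6:123122451-123124000) covered the start with its summit 628 bases inside the gene, in an exon. At Clec5a the peak on the start (chr6:40585504-40586177) reached a fold of 39.3, and 2 stronger ones lay in an exon (chr6:40575728-40576840) with a fold of 49.9 and beyond the 3′ end of the gene (chr6:40573487-40574362) with a fold of 49.3. The strongest peaks of Clec4n (chr6:123229577-123230078) and Clec2d (chr6:129180345-129181242) also covered the start, with folds of 28.9 and 18.3. For Clec4n this was the GENCODE start. The peaks on the starts of Clec4d (chr6:123261934-123262259) and Clec4e (chr6:123289618-123290478) were weaker, with folds of 10.5 and 8.45. All 7 genes with a RefSeq start had a CHD4 peak of WT GMPs on the window of 250 bases before to 50 bases after it, where 5.46% of 27025 RefSeq genes had one.

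In Gfi1-/- GMPs 19 distinct CHD4 peaks lay near the receptor genes, and each of them overlapped a peak of WT GMPs. They lay near Clec12a (8), Clec5a (7), Clec4n (2), Clec4a2 (1) and Clec7a (1), and Clec4d, Clec4e and Clec2d had 0 (10.2% of all genes had at least 1). A peak lay on the start window of Clec5a, Clec7a and Clec12a, 3 of the 7 genes with such a window, beside 0.999% of RefSeq genes. These 3 were the receptors with the highest TPM in WT GMPs. Clec4n, which had no such window, also had a peak of Gfi1-/- GMPs over its GENCODE start (fold of 9.71). Its mean in WT GMPs, 0.274 TPM, was the lowest of the 8. The 3 receptors without a CHD4 peak in Gfi1-/- GMPs, Clec4d, Clec4e and Clec2d, were among the 4 lowest in WT GMPs, and the other of those 4, Clec4n, had 2.

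Counted over peaks of WT GMPs, 16 of 46 near the receptors overlapped a peak of Gfi1-/- GMPs, which is 34.8% (95% Wilson interval of 22.7% to 49.2%), beside 18.5% of all 35790 peaks. The list of Gfi1-/- GMPs was shorter, with 7316 peaks, and the read depth is unknown. The share followed the fold of the WT peak. Under a fold of 10 it was 1 of 20 peaks near receptors (5.00%) and 2.57% of all peaks, from 10 to under 20 it was 3 of 11 (27.3%) and 28.9%, and at 20 or more it was 12 of 15 (80.0%, interval of 54.8% to 93.0%) and 90.5%. In each class the share of all peaks lay inside the counting interval of the share near receptors. The intervals cover counting error only. The 3 strong peaks without a counterpart lay at Clec7a (fold of 24.5), Clec5a (22.0) and Clec12a (21.3), none of them on the start. The part of depth or antibody efficiency in the difference between the genotypes was not tested.

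**Figure D4:**
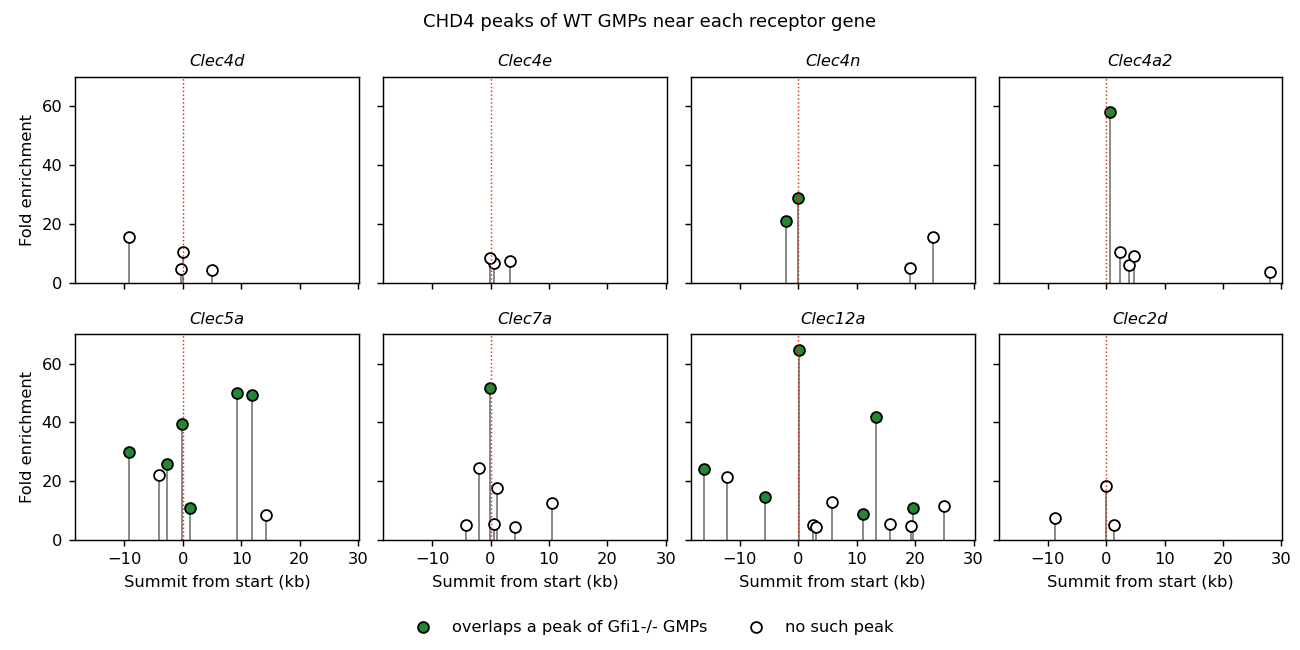
Fold enrichment of each CHD4 peak of WT GMPs against the distance of its summit from the start of the gene in kb, negative before the start, with green points for peaks that overlap a CHD4 peak of Gfi1-/- GMPs and open points for the rest. Clec12a, Clec4a2 and Clec7a have their strongest peak, with folds of 64.5, 58.2 and 51.6, close to the start, and Clec4d, Clec4e and Clec2d have open points only.

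The core GAGGAA lay within 100 bases of the summit on either strand at 28 of the 46 peaks near receptors (60.9%) and at 46.1% of all CHD4 summits of WT GMPs. AAATCA lay there at 6 of 46 (13.0%) and at 12.1% of all. These shares describe the letters in the windows, with peaks of 1 gene close to each other.

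H3K4me2 peaks covered more of the receptor genes after the progenitor stage. Within 10 kb, 7 of 8 receptor genes had an H3K4me2 peak in GMPs, where 73.4% of all genes had one, and 8 of 8 had one in preNeu and in matNeu, beside 74.0% and 71.9%. Clec4n had 0 in GMPs. Over the merged windows the peaks covered 8.95% of bases in GMPs, 38.0% in preNeu and 38.5% in matNeu. Over all genes the mean coverage was 6.54%, 10.8% and 8.94%, and the median was 3.80%, 6.40% and 4.78%. The first values pool the bases of all receptor windows, while the mean and median are taken over single genes. The GMP peaks were weak, with folds of 2.41 to 3.71 near the receptors, and 18.8% of all GMP peaks had a −log10 q of at least 5, against 58.0% in preNeu and 50.3% in matNeu. The part of enrichment quality in the GMP values was not tested, and with peaks of at least this q the GMP coverage near receptors was 0%, against 35.6% and 34.0% in the other lists.

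Clec5a and Clec12a had the highest coverage of the 8 in preNeu and in matNeu, and Clec2d had the highest in GMPs. Coverage at Clec5a was 14.6% in GMPs, 80.6% in preNeu and 66.2% in matNeu, with 1 peak of 21918 bp in preNeu. At Clec12a it was 12.0%, 68.4% and 60.2%, with a peak of 22583 bp in preNeu. Both genes have the highest TPM of the 8 in preNeu, but Clec5a ranked 4 and Clec12a 6 by TPM in matNeu. In GMPs Clec2d, with the highest coverage, ranked 7 by TPM. Clec4d went from 1.91% to 29.8% and 44.4%, Clec4e from 9.17% to 17.8% and 26.9% and Clec7a from 9.67% to 14.2% and 25.2%, so that these had their highest coverage in matNeu. The windows of Clec4d and Clec4e share bases. Clec4n went from 0% to 13.6% and 12.1%, Clec4a2 from 4.59% to 28.4% and 31.2% and Clec2d from 21.4% to 33.6% and 28.7%.

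The start of Clec4d, of Clec4n and of Clec7a lay outside H3K4me2 peaks in GMPs and inside them in preNeu and matNeu. The other 5 starts lay inside peaks in every list. At Clec7a a GMP peak (chr6:129470472-129472750) ended just inside the gene, next to the start at 129472779. At Clec4d the mark covered the start in preNeu, where its mRNA was at most 2.91 TPM. From preNeu to matNeu coverage and mRNA moved the same way for 5 of 8 receptors, where this held for 76.9% of 7592 genes called in that comparison, 41.2% of those higher in matNeu and 95.2% of those lower. The exceptions were Clec4a2, with lower mRNA and slightly higher coverage, and Clec4n and Clec2d, with higher mRNA and slightly lower coverage.

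**Figure D5:**
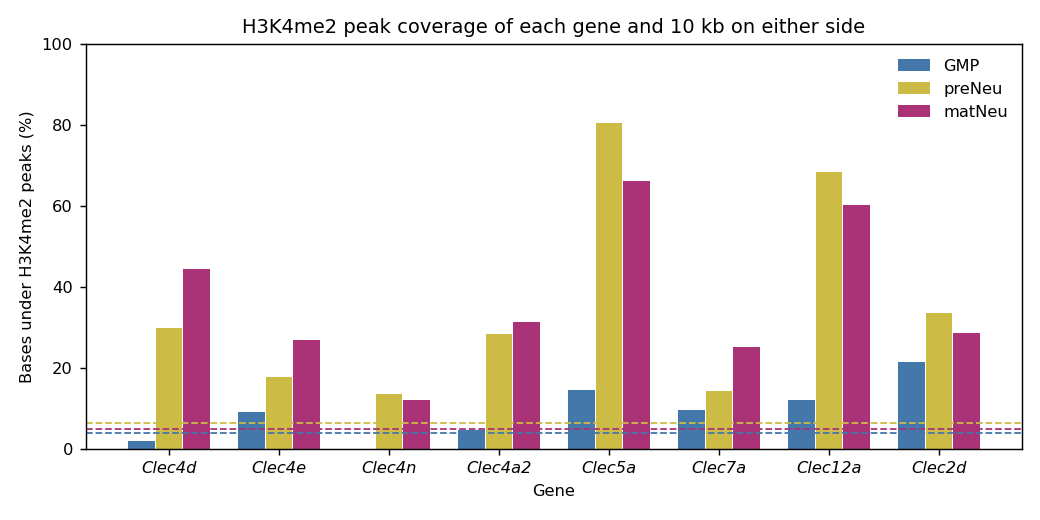
Percent of bases under H3K4me2 peaks in each receptor gene and 10 kb on either side, in 1 library per cell type, with dashed lines at the median of all genes in the color of the cell type. Clec5a and Clec12a reach 80.6% and 68.4% in preNeu, and Clec4n has no bar in GMPs.

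Many CHD4 sites of the progenitors lay under the mark at later stages. Of the 46 CHD4 peaks of WT GMPs near receptors, 20 overlapped an H3K4me2 peak of GMPs (43.5%), 40 one of preNeu (87.0%, interval of 74.3% to 93.9%) and 41 one of matNeu (89.1%, interval of 77.0% to 95.3%), beside 37.8%, 59.5% and 52.5% of all CHD4 peaks. Long H3K4me2 peaks such as those of Clec5a and Clec12a each span several CHD4 peaks, so the 46 are not independent. ATAC-seq, which maps accessible DNA, had peaks within 10 kb of 6 of the 8 receptor genes, all but Clec4a2 and Clec7a, beside 52.8% of all genes. The lists given for preNeu and matNeu were identical, and the values cannot be assigned to one of the cell types.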

How the data were processed

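RNA-seq libraries (3 per cell type) and ChIP-seq or ATAC-seq peak lists (1 library each) were grouped by sample titles. The authors deposited TPM per gene and library. A unit of TPM keeps no depth, so the depth behind each value is unknown and no count test was used. The labels' extraction text describes counting reads on transcripts, while the submitters' processing notes name FastQC 0.11.5, Trimmomatic 0.36, MultiQC 1.6, BWA 0.7.17, MACS2 2.1.0, kallisto 0.44.0 and the build mm10, without saying which tool made which file. All columns of the TPM table were used (0 left out). Each peak's fold enrichment, a ratio over background, and its −log10 q-value are as the authors deposited them, and their read depth is unknown. The score of each peak, as the authors deposited it, was not used. Lists for GFI1 and H3K4me3 held peaks beyond the ends of GRCm38 chromosomes and were not used here.

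Log2(TPM + 1) of genes that reached 1 TPM in 3 or more libraries was fitted with limma 3.58.1 (R 4.3.3), cell type as the only term and a trend in the variance, and tested on simulated data. p-values are two-sided, adjusted by Benjamini and Hochberg over all genes tested. Peaks within 10 kb of GENCODE M21 genes (protein coding and polymorphic pseudogenes) were compared by an overlap of at least 1 bp in Python 3.11.15 with pandas 2.3.3 and scipy 1.17.1. Distances are from the RefSeq start, or the GENCODE start for Clec4n. Promoter sequences are from RefSeq (GRCm38.p6). All 8 receptors, 7 adaptors and the 3 most abundant genes of other lists were named by rule, and other genes were named after their values were seen. Of the lists, 1 signalling gene and 1 B cell marker are not reported here. The genes, lists and tests were chosen with earlier results of these data known. Alternatives covered the pseudocount, filters, 2 rescalings, the groups fitted, the replicate block, the trend, a minimum log2 change of 1, each library left out, and window, q-value and overlap limits for peaks.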

Additional observations from a re-analysis of the deposited data

How the results depend on the processing

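Of 429 values of single receptors under alternatives, 408 kept their direction and side of the threshold, 16 newly passed it, 5 no longer passed it and 0 turned sign. Left out in turn, each library gave 4 to 5 receptors called in preNeu against GMP, 8 in matNeu against preNeu and 7 to 8 in matNeu against GMP. Against a log2 change of 1, the receptors called in matNeu against preNeu dropped from 8 to 5, because this test asks for more than a change. It accounts for all 5 values that no longer passed, those of Clec4a2, Clec5a and Clec2d in that comparison and of Clec12a in preNeu and in matNeu against GMP. CHD4 peaks of WT GMPs near receptors numbered 27 within the genes and 101 within 50 kb, instead of 46, by construction of the window. H3K4me2 coverage in GMPs was 15.6% within the genes, 5.45% within 50 kb and 0% with a −log10 q of at least 5, and within 50 kb it was 23.2% in preNeu and 20.6% in matNeu. Lists of equal numbers of H3K4me2 peaks gave 8.95%, 37.4% and 37.3%. A filter of at least 5 TPM left out Clec2d.

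The titles number the libraries of each cell type from 1 to 3. Deviations of libraries with the same number correlated at -0.0394 to 0.123, and those with different numbers at -0.128 to 0.0706. With 3 libraries per cell type these values do not settle whether the numbers pair samples. With the replicate block 5, 8 and 8 receptors were called in the 3 comparisons, and the added calls were Clec2d in preNeu against GMP (-0.96, adjusted p = 0.0380) and in matNeu against GMP (0.85, adjusted p = 0.0470). Depth cannot be read from TPM or peak lists, and 1 library per ChIP-seq group leaves peak differences without a replicate check.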
